A study of Mus musculus with 2 samples.

Results

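The cells described here were the keratinocytes of newborn mouse back skin that carried the keratin gene Krt79, a marker of the upper hair follicle, with the keratins of the interfollicular suprabasal layers and the genes of the sebaceous gland below set limits. They were selected from the droplets of both libraries on measured counts. A droplet was taken where Krt79 reached at least 5 unique molecular identifiers (UMIs, each standing for 1 captured mRNA molecule) per 10000, where Krt1 and Krt10 together stayed below 50 per 10000, and where Pparg, Aldh3a1 and Acsbg1 together had fewer than 4 UMIs. Of 16453 filtered droplets, 431 met this rule, 258 of 8661 in the PADI4 WT library and 173 of 7792 in the library labelled PADI4 cKO (below, the cKO library). The levels of these 6 genes in the selected cells are therefore descriptions of the choice. The working name of the population was infundibulum and duct, with Krt79, Plet1, Cst6 and Aqp3 as its markers. The counts below went only partly with that name, and the cells are called Krt79-selected cells.

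The study profiled tdTomato-positive, DAPI-negative epithelial cells of back skin at postnatal day 1, after the epidermis had been peeled off and the dermal fraction with the growing follicles had been dissociated. There was 1 library per genotype, labelled WT and PADI4 cKO and both given as batch 1, so that no spread between animals can be stated. The labels describe K14-Cre, Padi4 fl/fl mice with a tdTOMATO reporter for the series as a whole, and give WT as the genotype of the control library without naming its alleles. In such mice Cre is driven by the promoter of the basal keratin K14, so that recombination and the reporter cover basal keratinocytes and their progeny. The floxed gene encodes a peptidyl arginine deiminase, an enzyme that converts arginine residues in proteins to citrulline.

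The infundibulum is the funnel of the hair follicle that opens to the skin surface, and the junctional zone and the sebaceous duct lie just below it. Krt79 marks the suprabasal cells that form the hair canal of the developing follicle and later line the infundibulum and the sebaceous duct, while Lrig1, Lgr6, Plet1 and Gata6 mark progenitors and duct cells of the same region. Like other stratified keratinocytes, these cells leave the basal layer, build desmosomes and tight junctions, make barrier lipids and are eventually shed, a step that depends on kallikrein proteases and on cysteine protease inhibitors such as cystatin M/E, the product of Cst6. Keratins of the companion layer (Krt75) and of the inner root sheath (Krt25, Krt71) belong to other layers of the follicle.

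Krt79 lies on the minus strand of chromosome 15 (GRCm38, chr15:101929332-101940324), in the same row of type II keratin genes as Krt77 (chr15:101858731-101869705), Krt5 (chr15:101707070-101712898), Krt6a (chr15:101689910-101694307) and Krt75 (chr15:101563345-101573904). None of the 470 stretches of 31 bases in the last 500 bases of its transcript occurred in a transcript of another gene, so that 3′ reads of Krt79 could be told apart from those of its relatives. The same count was 0 for Krt75, Krt77, Krt6a, Krt5, Aqp3 and Klk7, 1.51% for Cst6 and 5.20% for Plet1. It was 17.2% for Krt17 and Krt14, 32.6% for Krt16 and 45.9% for Stfa1. These are shares of stretches, not of UMIs, and how far the values of these genes are affected was not tested. The 250 bases upstream of the start are shown for the gene that chose the cells and for the marker found in most of them (RefSeq, GRCm38.p6, Krt79 at chr15:101940325-101940574 on the minus strand, Plet1 at chr9:50494275-50494524 on the plus strand). Capitals mark matches, on either strand, to the GC box GGGNGGGG, the AP-1 motif TGANTCA, the GATA motif AGATAA or the TATA box TATAAA.
Krt79: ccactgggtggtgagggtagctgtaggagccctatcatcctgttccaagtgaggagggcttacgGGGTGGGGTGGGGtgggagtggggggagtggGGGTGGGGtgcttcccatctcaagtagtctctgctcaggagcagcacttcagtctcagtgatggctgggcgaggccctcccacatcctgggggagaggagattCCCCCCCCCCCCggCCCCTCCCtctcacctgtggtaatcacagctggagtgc
Plet1: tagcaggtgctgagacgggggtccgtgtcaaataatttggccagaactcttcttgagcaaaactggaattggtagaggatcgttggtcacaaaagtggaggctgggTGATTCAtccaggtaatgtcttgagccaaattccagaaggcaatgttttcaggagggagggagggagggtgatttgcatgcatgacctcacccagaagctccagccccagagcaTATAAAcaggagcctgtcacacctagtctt
Krt79 had 9 overlapping GC box matches in 4 separate runs, the nearest starting 38 bases before the start site, and none of the other motifs. Plet1 had 1 AP-1 match at 144 bases and 1 TATA box at 30 bases before the start. Of 32851 promoters, 30.8% held a GC box, 6.75% an AP-1 motif, 9.99% a GATA motif and 12.4% a TATA box in the same window. These matches describe letters, not sites in use.

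The 258 WT cells held 3516274 UMIs and the 173 cells of the cKO library held 2567242. The medians per cell were 12137.5 UMIs and 3834 genes in the former and 13291 UMIs and 4106 genes in the latter, below the medians of 14176 and 15875 UMIs in all other droplets. Mitochondrial genes took a median of 3.64% and 3.51% of the UMIs of the Krt79-selected cells, against 3.37% and 3.32% elsewhere. Droplets with fewer than 100 UMIs held 228 and 195 Krt79 UMIs per 1000000 (CPM), and with a free share of at most 4.83% and 3.16% a median Krt79-selected cell would carry 0.133 and 0.0817 free Krt79 UMIs, against a median of 14 and 24 that were counted. Scrublet called 10 (3.88%) and 9 (5.20%) of the Krt79-selected cells doublets, against 3.90% and 3.94% of the other droplets. The libraries shared 17 barcodes, and no Krt79-selected barcode of one was a Krt79-selected barcode of the other.

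The libraries differed in sex-linked UMIs. Of the WT Krt79-selected cells, 56 had UMIs of Xist and none of Uty, Eif2s3y or Kdm5d, 159 had the reverse, 22 had both and 21 neither. In the cKO library, 172 of 173 had Xist UMIs alone. Of the other droplets, 26.7% and 99.5% were Xist-only. Every comparison between the libraries is thus also one between sexes, and values in Xist-only cells are given for many of the genes and lists.

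Krt79 was spread over a wide range in the selected cells. The WT cells went from 5.07 to 226 UMIs per 10000 with a median of 11.4, and those of the cKO library from 5.03 to 191 with a median of 15.2. The highest cells left out for Krt79 had 4.991 and 4.998. There were 28 and 17 cells at 5 to 6 per 10000, just inside the threshold, and 59 and 41 droplets at 4 to 5, just outside it, so that the threshold cut through a continuous range. Krt1 and Krt10 were both at 0 in 131 and 92 of the selected cells, and the highest joint value was 32.3 and 18.0 per 10000. The selected cells held 48.9% of all Krt79 UMIs of the WT droplets and 45.3% of those of the other library. Most of the rest was in droplets that met the Krt79 threshold but carried sebaceous genes, with 30.5% and 38.5%.

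Plet1, the most widely shared of the other 3 markers, was found in 145 of 258 WT cells (56.2%, exact 95% interval 49.9% to 62.3%) and 94 of 173 cells of the cKO library (54.3%, 46.6% to 61.9%), against 29.8% and 30.9% of all other droplets. After each cell had been thinned to 2000 UMIs the shares were 14.7% and 13.9%, against 6.26% and 5.43%. Its level was 93.6 and 107 CPM, against 32.3 and 30.9 elsewhere. Aqp3, which encodes a water and glycerol channel, was found in 30.2% and 22.0% of the Krt79-selected cells and 10.7% and 7.01% of the other droplets, with 41.5 and 25.7 against 17.6 and 8.96 CPM (thinned shares 5.43% and 2.31%, against 3.30% and 1.40%). Cst6 was found in only 19.0% and 24.3%, against 13.4% and 13.5% elsewhere (thinned 5.04% and 6.36%, against 2.74% and 2.60%). Its summed level, 79.9 and 798 CPM against 19.5 and 16.3, came from few cells, since a single cell held 40.9% of its UMIs in the WT library and 47.4% in the other. The groups thus overlapped widely in each of the 3 markers, at this depth.

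Taken per cell, 77 WT cells (29.8%) and 50 cells of the cKO library (28.9%) had no UMI of Plet1, Cst6 or Aqp3, and 15 (5.81%) and 11 (6.36%) had all 3, against 0.762% and 0.525% of the other droplets. Gata6, a transcription factor of the duct and upper follicle, was found in 22.1% and 16.8% of the Krt79-selected cells. It was found in a like share of the cells with and without Cst6, 18.4% and 23.0% in the WT library and 16.7% and 16.8% in the other, but the 2 genes differed in where they met Krt75. Cst6 was found in 39.6% of the 53 WT cells with Krt75 and 13.7% of the 205 without it, and in 40.0% of 50 and 17.9% of 123 in the other library. Gata6 was found in 7.55% and 4.00% of the cells with Krt75 and in 25.9% and 22.0% of those without. The name infundibulum and duct therefore held for some of the selected cells, while others carried Krt79 with genes of deeper layers.

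**Figure D1:**
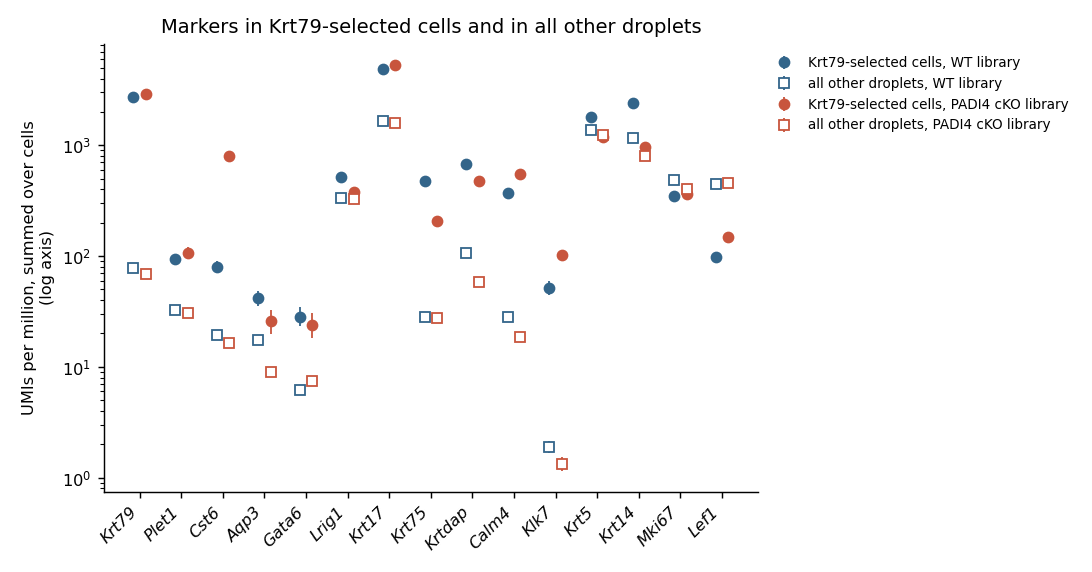
Summed CPM (log axis) of 15 genes in the Krt79-selected cells (filled circles) and all other droplets (open squares) of the WT library (blue) and the cKO library (red), with bars for the 95% Poisson counting interval, which is smaller than the point for most genes. Krt79, used by the rule, stood at 2729 and 2898 against 78.2 and 69.2, while Krt5 stood at 1801 and 1177 against 1363 and 1235 and Lef1 was lower in the selected cells.

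The selected cells were then set against all other droplets of their own library over 13536 genes, leaving out the 6 genes of the rule. Each gene had at least 100 UMIs in each library over selected cells and other droplets together. A gene rare elsewhere could thus pass this minimum through its UMIs in the selected cells. The measure was the log2 ratio of the summed levels, after 0.5 UMI had been added to each sum. A gene was counted as higher or lower where the ratio was at least 1 in size in both libraries, which held for 480 genes in the higher direction (3.55% of those compared) and 494 in the lower (3.65%). With every cell weighted equally, 402 of the 480 kept a ratio of at least 1 in both libraries, and in 66 a single cell held over 25% of the UMIs in at least 1 library. The median ratio over all genes compared was −0.05 and −0.02. As the cells were chosen on measured genes, these are descriptions with no test, and intervals cover the counting of UMIs alone.

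Ranked by the ratio in the library where it was smaller, Klk7, Ly6g6c, Krt77 and Krt6a came first. Klk7, a kallikrein protease that cleaves the junctions of shedding cells, had 51.8 and 101 CPM in the Krt79-selected cells of the WT library and the cKO library, against 1.90 and 1.33 in the other droplets, a log2 ratio of 4.77 (95% interval 4.48 to 5.05) and 6.25 (5.97 to 6.53). It was found in 12.8% and 12.1% of the cells, so that few cells made up the level. Krt77, a suprabasal keratin, reached 35.3 and 28.0 against 1.52 and 0.508 in 10.1% and 9.83% of the cells, and Krt6a, a keratin of the hair canal and of stressed epidermis, 59.2 and 82.6 against 2.57 and 2.60 in 5.04% and 4.05%. A single cell held 27.9% and 60.8% of the Krt6a UMIs.

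Other leading genes were spread over more cells. Calm4, a calmodulin-like gene of differentiating epidermis, was found in 44.6% and 63.6% of the cells with 369 and 548 CPM, against 28.3 and 18.5, a log2 ratio of 3.70 (3.61 to 3.80) and 4.89 (4.79 to 4.99). Ly6d, a surface protein of stratified epithelia, had 1074 and 516 against 138 and 42.5 (2.96 and 3.60). Alox12e, an epidermal lipoxygenase gene, had 68.5 and 77.5 against 4.92 and 4.44 (3.80 and 4.13). Sult2b1, which makes the cholesterol sulfate of the barrier, had 88.7 and 108 against 9.51 and 8.13 (3.22 and 3.73). Wnt11, a Wnt ligand, had 79.6 and 84.1 against 5.94 and 6.41 (3.75 and 3.72), and Gsdma, a gasdermin of differentiating keratinocytes, 43.5 and 54.5 against 5.57 and 4.44 (2.97 and 3.62). The choice of genes required ratios of at least 1 in both libraries. The remaining genes among the highest 25 were Ly6g6c, Zfyve28, Bbox1, Pla2g4f, Adgrf2, Elovl4, Trpm8, Pcdh1, Atp6v0a4, Pdzk1ip1, Krt16, Rbp2, Heyl, Ctsc, Klk5 and Krt75, with ratios from 2.91 to 5.78.

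The lowest ratios belonged to genes with few or no UMIs in the selected cells. Hhip, an inhibitor of hedgehog ligands, had 1 UMI in the selected cells of each library, against 893 and 1437 UMIs in the other droplets. Spsb4, Igfbp3, Cyp2g1, 4933431K23Rik, Cmah, Gykl1 and Prnd had 0 UMIs in the selected cells of both libraries, and 37 of the genes compared did. Cldn10, a claudin, had 7.96 and 5.45 CPM in the selected cells and 93.9 and 91.0 in the others, and Tagln, a smooth muscle gene, 9.67 and 6.62 and 121 and 112. Nkain3, Crhr1, Col4a3, Ryr2 and Lmo3 completed the lowest 15.

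**Figure D2:**
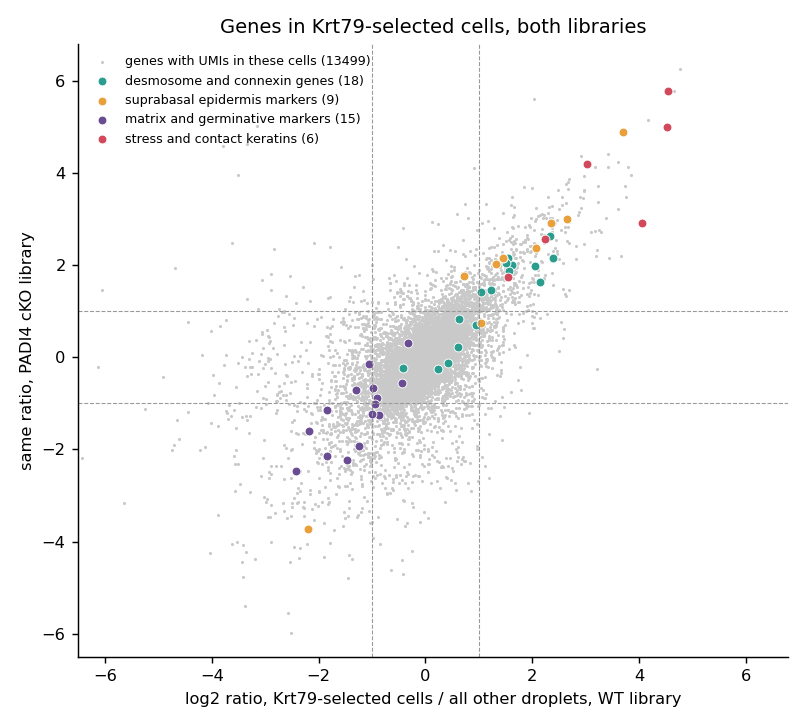
Each point is a gene, with its log2 ratio of Krt79-selected cells to all other droplets in the WT library (horizontal) and the cKO library (vertical). Gray points are the 13499 compared genes with UMIs in the selected cells, colored points are members of 4 lists, and dashed lines mark ratios of 1 and −1. Desmosome, suprabasal and contact keratin genes lie mostly at the upper right and matrix genes at the lower left.

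Gene lists of known function are read against the 3.55% and 3.65% of all genes. Of the 11 stress and contact keratins, 6 had enough UMIs and all 6 of these were higher, Krt17, Krt75, Krt6a, Krt16, Krt77 and Krt80. In the cKO library Krt16 and Krt77 had enough only with the UMIs of the selected cells, so their place in this count depends on the choice. Krt17, a keratin of follicle epithelium, was the most abundant in these cells with 4858 and 5289 CPM, against 1660 and 1583 elsewhere (log2 ratio 1.55 and 1.74). Krt80 had 52.0 and 59.99 against 11.1 and 10.2. Krt75, the companion layer keratin, had 471 and 209 against 28.3 and 27.9 (4.06 and 2.91) and was found in 20.5% and 28.9% of the cells.

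Most desmosome genes were higher in the selected cells. Of the 19 desmosome and connexin genes, 18 were compared, 12 were higher and none was lower, with median ratios of 1.48 and 1.75. Perp, a desmosome protein, had 1671 and 2211 CPM against 568 and 498, Dsp, the desmosomal plaque protein, 990 and 893 against 420.2 and 324, and the desmoglein Dsg1a 173 and 197 against 34.0 and 25.996. Plakoglobin (Jup, 322.5 and 362 against 109 and 98.8) and plakophilin 1 (Pkp1, 228 and 230 against 73.7 and 57.2) lay on the same side. Of 12 tight junction genes, 10 were compared and 4 were higher. These were Cldn1, Cldn4, Ocln and Tjp3, with Cldn1 at 136 and 149 against 41.1 and 38.2. The 14 basal and adhesion genes, in contrast, held none in either direction. Krt5 had 1801 and 1177 against 1363 and 1235, and Krt14 2411 and 959 against 1160 and 804, so that both stood higher in the WT library and near the level of the other droplets in the cKO library.

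Of 12 suprabasal epidermis markers, 9 were compared apart from Krt1 and Krt10, and 6 were higher and 1 lower. Krtdap, a secreted protein of differentiating keratinocytes, had 673 and 472 CPM against 107 and 58.5 (log2 ratio 2.66 and 3.01) and was found in 68.6% and 64.2% of the cells. Sbsn had 144 and 163 against 34.1 and 31.6. Late envelope genes were rare. Of 19 late envelope genes, 13 and 14 were at 0 UMIs in the selected cells, 3 were compared, Ivl and Asprv1 were higher and Lor was lower. Lor, the main envelope protein of cornified epidermis, had 6 and 2 UMIs, and Asprv1, the filaggrin-processing protease, 104 and 81.0 CPM against 23.0 and 19.1. Of 12 transglutaminase and scaffold genes, 10 were compared and 5 were higher, among them periplakin (Ppl, 147 and 143 against 44.3 and 34.8), sciellin (Scel, 252 and 271 against 85.7 and 75.4) and Tgm1 (6.54 and 16.4 against 1.03 and 1.13). The epidermis had been peeled off before dissociation, and how many late cells were lost with it was not tested.

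Among barrier lipid genes, 6 of 14 compared (17 listed) were higher and none lower, Abca12, Elovl4, Cers3, Pnpla1, Cyp4f39 and Sult2b1. Elovl4, an elongase of very long fatty acids, had 27.0 and 23.4 CPM against 2.52 and 1.35. Among 23 kallikreins and inhibitors, 12 were compared, and Klk5, Klk7, Klk8, Klk10 and Spink5 were higher and Slpi was lower. Of the 9 genes of cystatin M/E and its proteases, Cst6, Ctsh and Tgm3 were higher, and the target proteases Ctsl (132 and 161 against 180 and 214) and Lgmn (29.3 and 43.2 against 28.3 and 24.7) were not. Of 19 antimicrobial and S100 genes, 11 were compared, and Defb1, S100a16 and Ly6d were higher and Lcn2 was lower. The beta-defensin Defb1 had 28.2 and 35.8 against 6.72 and 4.52. Of 8 glycerol and water genes, 5 were compared and Aqp3 alone was higher.

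Among signaling genes, the Notch pathway held 18, of which 14 were compared and 5 were higher with none lower. The receptors Notch1 (304 and 409 CPM against 139 and 120), Notch2 (87.0 and 101 against 35.7 and 33.6) and Notch3 (70.5 and 98.5 against 15.98 and 11.7) were higher, and so were the targets Heyl (35.5 and 72.5 against 4.52 and 4.74) and Nrarp (123 and 166 against 40.4 and 36.9). Of 16 EGF receptor pathway genes compared (19 listed), 4 were higher, the ligands Areg, Tgfa and Epgn and the feedback inhibitor Spry4. Of 18 Wnt and hedgehog response genes, 7 were lower and none higher, Lef1, Notum, Lgr5, Wif1, Sfrp1, Gli3 and Hhip. Lef1, a nuclear effector of Wnt signaling, had 97.8 and 150 against 444 and 454 (−2.18 and −1.60). Of 13 BMP pathway genes compared (15 listed), the activin antagonist Fst alone was higher, with 469 and 226 against 146 and 92.6. Of 14 retinoid genes compared (19 listed), Rdh12 and Sdr16c5 were higher and Stra6 and Dhrs9 lower.

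Among 31 epithelial transcription factors compared (34 listed), 9 were higher and 1 was lower. Gata6 had 28.4 and 23.8 CPM against 6.12 and 7.39 (log2 ratio 2.22 and 1.70). The differentiation factors Grhl3 (20.2 and 36.6 against 6.48 and 5.30) and Zfp750 (98.7 and 150 against 32.5 and 26.5), the homeodomain protein gene Hopx (492 and 693 against 175 and 168) and the aryl hydrocarbon receptor Ahr (96.4 and 52.2 against 23.96 and 16.02) were also higher, with Klf5, Grhl1, Ehf and Irx3. Bnc1, of basal keratinocytes, was lower. Of 22 cell cycle genes, the inhibitors Cdkn1a (218 and 212 against 79.04 and 58.99) and Cdkn2b (17.1 and 18.3 against 2.37 and 2.16) were higher, and Mki67 had 346 and 365 against 489 and 402. Of 20 cell death genes compared (27 listed), Bbc3 and Gsdma were higher. Of 20 immediate early and dissociation genes, Egr2 was higher and Fosl1 lower.

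Lists of other follicle layers were mixed. Of 15 matrix and germinative markers, 6 were lower and none higher, Msx1, Msx2, Lef1, Hoxc13, Myb and Edar. Of 14 outer root sheath markers compared (15 listed), 6 were lower, with Lgr5 at 87.9 and 103 CPM against 260 and 285. Of 8 hair shaft markers compared (16 listed), Krt32 was higher and Krt35, Krt86 and Mt4 were lower. Of 8 inner root sheath markers compared (10 listed), Krt73 and Tgm3 were higher, and of 6 companion layer markers compared (9 listed), Krt75, Krt6a, Krt16, Krt17 and Sult2b1 were higher and Fgf5 was lower. Of 15 sebaceous markers compared (21 listed, 3 of them used by the rule), Elovl4 was higher and Elovl3, Far2 and Soat1 were lower. Of 14 upper follicle genes compared (18 listed), 9 were higher and none lower, Gata6, Krt17, Krt7, Klk10, Fst, Ly6d, Sprr1a, Gjb6 and Fads3. The stem cell gene Lrig1 was higher by less, with 521 and 381 against 334 and 325.

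Markers of most other cell types summed to less than in the other droplets, except the immune list in the cKO library and the simple epithelial list. The 10 fibroblast markers summed to 196 and 234 CPM against 832 and 842, with 3 and 1 of them at 0. Dcn, at 92.7 and 78.7 against 690.4 and 727, made up most of the sum in the other droplets but not in the selected cells. The median ratio of the 8 compared was −2.37 in the WT library and 0.12 in the other. In the cKO library a single selected cell held 90.5% of the 21 Col1a1 UMIs. With every cell weighted equally the Col1a1 ratio there was −0.83. The 8 melanocyte markers summed to 49.5 and 45.6 against 129 and 131, with Mitf the most abundant. The 9 immune markers summed to 1.99 and 7.01 against 7.30 and 5.84, with 8 and 6 at 0 and H2-Ab1 the most abundant. The 10 endothelial, muscle and red cell markers summed to 21.6 and 9.74 against 151 and 141, with 5 and 5 at 0 and Tagln the most abundant. The 8 simple epithelial and Merkel cell markers summed to 41.2 and 28.4 against 24.2 and 18.6, with Krt7 higher and Krt18 lower. A single cell of the cKO library met the limits used to mark fibroblasts, melanocytes and immune cells, against 252 and 197 of the other droplets.

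The droplets just outside the rule show what it separates. Droplets that met the Krt79 threshold but had sebaceous genes numbered 248 and 247. They had 952 and 861 CPM of the sebaceous lipid gene Mgst1, against 110 and 73.6 in the Krt79-selected cells, and 291 and 287 of Cidea against 3.98 and 6.62. Plet1 was found in 48.8% and 44.9% against 56.2% and 54.3%. Gata6 was found in more of them, 48.0% and 46.6% against 22.1% and 16.8%, and so was Lrig1, 94.4% and 93.9% against 78.7% and 62.4%. These shares are not thinned, and the limit on sebaceous genes was a count of UMIs per droplet, so that depth could affect them. Krt17 (1938 and 1836 against 4858 and 5289 CPM) and Calm4 (24.5 and 8.25 against 369 and 548) were lower in the sebaceous-gene group.

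Droplets with Krt79 and Krt1 or Krt10 above the limit were few, 8 and 1, and the 8 WT droplets had 2962 CPM of Calm4, 4853 of Krtdap, 535 of Krt77 and 583 of Klk7. These genes were higher still beyond the limit of the rule. In the 1294 and 1137 droplets with Krt79 above 0 and below the threshold, Plet1 had 50.4 and 50.9 CPM, between the 93.6 and 107 of the selected cells and the 27.2 and 25.2 of the 6853 and 6234 droplets with no Krt79 UMI. Among the droplets with Krt79 at 0 or below the threshold, 146 and 147 carried both Plet1 and Gata6. Their Krt79 was 58.9 and 31.5 CPM, their Fst 429.5 and 170 and their Calm4 13.2 and 1.69.

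The 431 cells fell into 9 sub-clusters when clustered without the genes of the rule and without cell cycle, sex-linked, mitochondrial and ribosomal protein genes. Sub-clusters are given by number and leading genes, and their genes are a description of the clustering. They differed in Krt79 itself, from a median of 7.58 UMIs per 10000 in sub-cluster 4 to 59.6 in sub-cluster 7, and in most of the markers.

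A pair of them had many basal genes. Sub-cluster 1 (72 cells, 59 and 13 by library) was led by Vcan, Col8a1, Bmpr1b, Fst and Pthlh, and held Fst at 1247 CPM in 100% of its cells, Lrig1 at 1029 in 98.6%, Gata6 in 40.3% and Cst6 in 1.39%. Sub-cluster 4 (59 cells, 26 and 33) was led by Tgfb2, Adamts19, Nfatc1 and Sema3e, with Lrig1 at 1094, Lgr6 at 786 and Nfatc1, a factor of stem cell quiescence, at 463. Of the 14 basal and adhesion genes, 10 stood above the other droplets in sub-cluster 1 and 8 in sub-cluster 4. For all sub-clusters, above means at least 1.5-fold over the other droplets with at least 5 CPM. In sub-clusters 7 and 8, 1 UMI made 6.17 and 5.10 CPM, so that 1 UMI could place a rare gene above, as with Krt77. The share of all genes above by this measure is not given for any sub-cluster, so all such counts describe the listed genes alone. Calm4 was at 37.0 and 1.33 CPM in sub-clusters 1 and 4. Of 15 outer root sheath markers, 6 stood above in sub-cluster 4, Sox9, Krt15, Nfatc1, Postn, Adamts19 and Runx1. Of 20 immediate early and dissociation genes, 10 stood above in sub-cluster 1, 12 in sub-cluster 4, 11 in sub-cluster 7 and 7 in sub-cluster 8, against 2 or 3 in each of the others, and their part in the other levels was not tested. Sub-clusters 1 and 4 were the cells with the least Krt79, with medians of 9.14 and 7.58 per 10000, near the threshold.

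Sub-cluster 2 (60 cells, 43 and 17) was led by Krt77, Stfa1, Igfbp2, Cstdc5, Stfa3 and Krt1. In it, 12 of 18 upper follicle genes and 8 of 10 suprabasal markers stood above the other droplets, against 11 and 8 in sub-cluster 7. Among the 12 in sub-cluster 2, Defb6 had 10 UMIs in 1 cell, and a single cell held 92.3% of the Sprr1a UMIs. Sub-clusters 3 and 6 also had 8 of the suprabasal markers above, and sub-cluster 4 had 10 of the upper follicle genes. Plet1, Cst6 and Aqp3 all stood above the other droplets in sub-clusters 2, 6, 7 and 8. In sub-cluster 2 they were at 113, 561 and 88.9 CPM, Gata6 was found in 38.3% of the cells, and Defb1 in 55.0%. Krt14 at 6367 and Krtdap at 2013 CPM stood side by side. A single cell held 60.5% of its Cst6 UMIs.

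Sub-cluster 7, with 14 cells (8 and 6), held most of the Cst6. Its level was 11704 CPM in 78.6% of the cells, with 51.2% of the UMIs in a single cell. Plet1 was found in 92.9% at 832 CPM, Gata6 in 7 of 14, and Krt79 had its highest level, 7690 CPM. Krt17 reached 24654, Krt6a 2356 in 71.4% of the cells, Cstb, a cysteine protease inhibitor, 3589 and the envelope precursor Sprr1a 1739, of which 76.6% lay in a single cell. A single cell also held 43.7% of the Plet1 and 43.1% of the Cstb UMIs. Mki67 was at 0 UMIs. Plet1, Cst6 and Gata6 were thus all found in this small group, though none of them in every cell. Each of these genes also had UMIs in sub-clusters 1 to 6, and Krt79 was in every cell by the rule.

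Sub-cluster 3 (59 cells, 34 and 25) had the most Krt79 among the larger groups, with a median of 57.3 per 10000. It was led by H19, Khdrbs3, Xdh, Alox12e, Alcam, Bbox1 and Slit3. The adhesion molecule gene Alcam reached 6001 CPM in 98.3% of the cells, and Alox12e 241 in 64.4%. Gata6 was found in 6.78% and Cst6 in 8.47%. Sub-cluster 0 (82 cells, 34 and 48) held cycling cells, with 14 of 22 cell cycle genes above the other droplets and Mki67 in 98.8% of the cells, together with Calm4 in 96.3%, Krt75 in 52.4%, Heyl at 127 CPM and no Gata6 UMI. Hist1h3c, E2f7, Nuf2 and Foxm1, which were not among the 22 cell cycle genes left out of the clustering, were among its leading genes.

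Some listed markers of deeper layers also stood above the other droplets in other sub-clusters. As before, these counts have no share of all genes beside them. In sub-cluster 0, 4 of 10 inner root sheath and 4 of 8 companion layer markers stood above the other droplets, the former being Krt71, Krt28, Krt73 and Gata3. In sub-clusters 5 and 6, 5 and 4 of the inner root sheath markers did. A single cell held 92.5% of the Krt71 and 65.0% of the Krt25 UMIs of sub-cluster 5. Sub-cluster 6 (32 cells, 18 and 14) was led by Tm4sf1, Krt75, Liph and Rbp2, with Krt75 at 3630 CPM in 100% of the cells, Wnt11 at 448 and 5 of 8 companion layer markers above the other droplets, the same number as in sub-cluster 3 and 1 more than in sub-clusters 0, 2 and 7. Sub-cluster 8 (14 cells, 6 and 8) was led by Krt25, with 3578 CPM, Mt4, Krt71 and Krt27. In it, 8 of 10 inner root sheath markers, 11 of 16 hair shaft markers and 6 of 15 matrix markers stood above the other droplets. So did 16 of 19 desmosome and connexin genes and 11 of 17 barrier lipid genes. A single cell held 55.6% of the Mt4 and 42.5% of the Krt71 UMIs of sub-cluster 8. Krt17 was at 280 there, below its level elsewhere. Sub-cluster 5 (39 cells, 30 and 9) had a median of 25878 UMIs, 16 doublet calls (41.0%), and Dcn, Krt35, Shh and Edar among its leading genes against the other Krt79-selected cells. Against the other droplets Dcn was at −0.89, Krt35 at −0.90, Edar at −0.02 and Shh at 0.51. In the Krt79-selected cells without sub-clusters 5, 6 and 8, 453 genes were higher and 591 lower than in the other droplets.

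**Figure D3:**
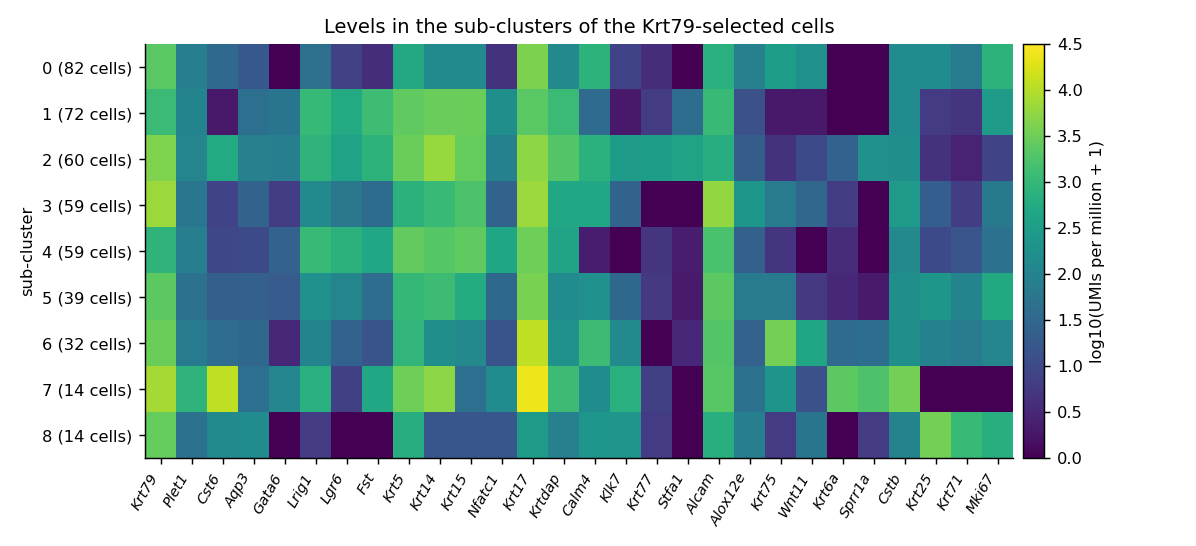
Summed level of 28 genes in the 9 sub-clusters, as log10 of CPM plus 1 (color, 0 to 4.5). Rows are sub-clusters with their cell numbers. Krt79 was present throughout, Krt5, Krt14, Lrig1 and Fst stood together in sub-clusters 1, 2, 4 and 7, Krt75 peaked in sub-cluster 6, Cst6, Krt6a and Sprr1a in sub-cluster 7, and Krt25 and Krt71 in sub-cluster 8.

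The targeted gene was looked at first in comparing the libraries. Padi4 had 0 UMIs in the 258 WT Krt79-selected cells, with an exact upper limit of 1.42% for cells with a UMI. In the Krt79-selected cells of the cKO library it had 5 UMIs, all in 1 cell of sub-cluster 2. In the other droplets it had 113 and 90 UMIs, 0.883 and 0.693 CPM. A 3′ tag need not read the floxed exons, and Padi4 was too rare in these cells to check the label. Padi1 and Padi2 were at 0 UMIs in both libraries and Padi3 had 7 and 3.

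Krt79-selected cells made up 2.98% of the WT droplets (exact 95% interval 2.63% to 3.36%) and 2.22% of those of the cKO library (1.90% to 2.57%). Within Xist-only droplets the shares were 56 of 2300 (2.43%, 1.84% to 3.15%) and 172 of 7756 (2.22%, 1.90% to 2.57%), and in the WT droplets with Y-linked UMIs alone it was 159 of 5142 (3.09%, 2.64% to 3.60%). Among the Krt79-selected cells, sub-cluster 1 took 22.9% (17.9% to 28.5%) in the WT library and 7.51% (4.06% to 12.5%) in the other, and sub-cluster 0 took 13.2% (9.30% to 17.9%) and 27.7% (21.2% to 35.1%). Within the WT library, sub-cluster 1 held 3 of 56 Xist-only cells and 47 of 159 cells with Y-linked UMIs alone. Its 13 of 173 cells in the other library, where 172 were Xist-only, were not below the share in Xist-only WT cells. Sub-cluster 0 held 11 of the 56 and 19 of the 159. Genotype and library cannot be told apart in these shares, and genes that differ between the libraries can move cells between sub-clusters.

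**Figure D4:**
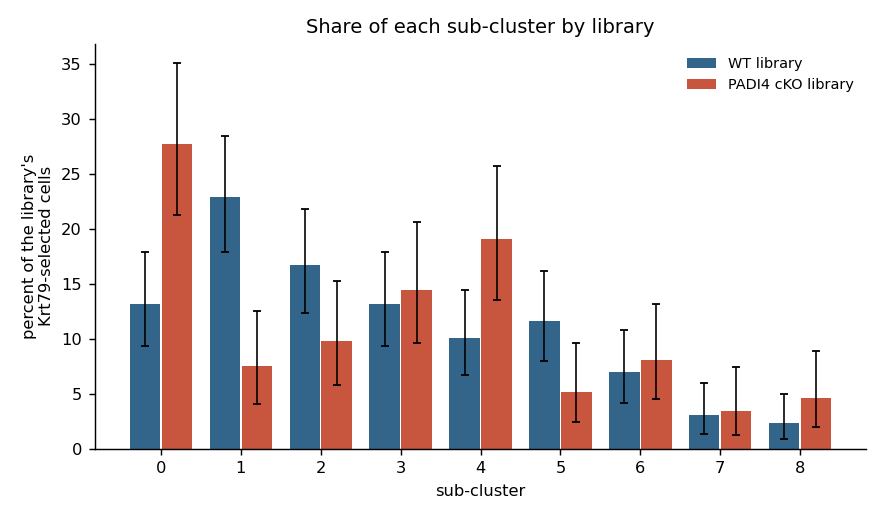
Percent of the Krt79-selected cells of each library in each of the 9 sub-clusters, WT in blue (258 cells) and the cKO library in red (173 cells), with exact binomial 95% intervals for counting error as bars. Sub-clusters 1, 2 and 5 took more of the WT library and sub-clusters 0, 4 and 8 more of the other, and many intervals overlap.

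Of 7758 genes with at least 100 UMIs over the Krt79-selected cells of both libraries, 432 (5.57%) lay above a log2 ratio of 0.5 of cKO over WT, and 403 (5.19%) below −0.5. Of these 835, 804 stayed past 0.5 without the cell richest in the gene in each library, and 454 stayed past 0.5 with the same sign in Xist-only cells. Krt79 and Krt17 were nearly level, with ratios of 0.09 (0.04 to 0.13) and 0.12 (0.09 to 0.16), and stood at 0.42 and −0.10 in Xist-only cells. Plet1 was at 0.19 (−0.05 to 0.43) and at −0.10 without its richest cell. Aqp3 was lower, at −0.69 (−1.13 to −0.26), but at −0.17 in Xist-only cells and −0.98 in the other droplets, and Krt75 was lower at −1.17 (−1.31 to −1.03) and −2.35 in Xist-only cells.

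Basal genes were lower in the Krt79-selected cells of the cKO library. Of the 14 basal and adhesion genes, 9 lay below −0.5 and none above 0.5, with a median of −0.64, and −0.39 in Xist-only cells. Krt5, Krt14, Krt15 and Col17a1 were among them. In the other droplets Krt14 was at −0.53, past the same limit, against −1.33 in the Krt79-selected cells, Krt5 at −0.14 against −0.61, Krt15 at −0.14 against −0.95 and Col17a1 at −0.33 against −0.90. Sub-cluster 1, with 10 of the 14 genes above the other droplets, held 59 of 258 WT and 13 of 173 cKO cells. It held 3 of the 56 Xist-only WT cells. Sub-cluster 4, with 8 of the 14 above, held 26 WT and 33 cKO cells. Sub-cluster 2, with 6 of the 14 above and the highest Krt14, held 43 and 17. The part of these shares in the ratios was not tested. Of 12 matrix and germinative markers, 6 lay above 0.5 and none below. Of 16 desmosome and connexin genes, 3 lay below −0.5, Dsg3 among them, and none above 0.5, and of 10 Notch pathway genes Heyl lay above and Jag2 below.

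The genes furthest apart included 3 kinds. Sprr1a had 22 and 384 UMIs and Cst6 281 and 2048, ratios of 4.55 (3.96 to 5.27) and 3.32 (3.14 to 3.50), while in the other droplets the ratios were −0.87 and −0.26. Single cells held 36.4% and 56.2% of the Sprr1a UMIs and 40.9% and 47.4% of the Cst6 UMIs, and both genes lay mostly in sub-cluster 7 with its 8 and 6 cells. Without the richest cell of each library the ratios were 4.00 and 3.15. Ptprt, Fam129a, Hbegf and Trpm8 were also higher, at 1.44 to 2.36, and the ratio of Hbegf dropped from 1.48 to 0.58 without its richest cells. A second kind also differed in the other droplets. The ratio in the Krt79-selected cells and in the other droplets was 3.41 and 3.56 for Gm10260, 1.47 and 1.07 for H2-K1, −1.99 and −3.70 for Stfa3 and −2.72 and −3.46 for Cstdc5. In Xist-only cells Stfa3 was at −0.01 (−0.53 to 0.57), Cstdc5 at −2.45 and H2-K1 at 0.97, and Gm10260 had 0 UMIs in the WT library. The third was sex-linked, with Xist at 1.96 and Tsix at 2.43 and with Uty at 311 and 0 UMIs, Eif2s3y at 236 and 0 and Ddx3y at 166 and 3. Gm8797 was at −3.08, at −2.80 in the other droplets and at −0.29 (−1.50 to 1.25) in Xist-only cells.

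Kctd16, Col8a1, Igfbp2 and Vsnl1 were lower, from −1.98 to −5.18, and in the other droplets from −0.56 to −0.98. For Kctd16 the 124 and 2 UMIs make the ratio imprecise (−8.56 to −3.62), and it was at −5.16 in Xist-only cells. Col8a1 went from −2.95 to −1.32 (−2.94 to 0.49) in Xist-only cells, Vsnl1 from −1.98 to −1.37 and Igfbp2 from −2.38 to −2.95. Col8a1 and Vsnl1 were leading genes of sub-cluster 1, which held 79 and 67 of their UMIs, and Igfbp2 of sub-cluster 2, which held 91. These sub-clusters had unequal shares in the libraries, and the part of the shares in these ratios was not tested.

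**Figure D5:**
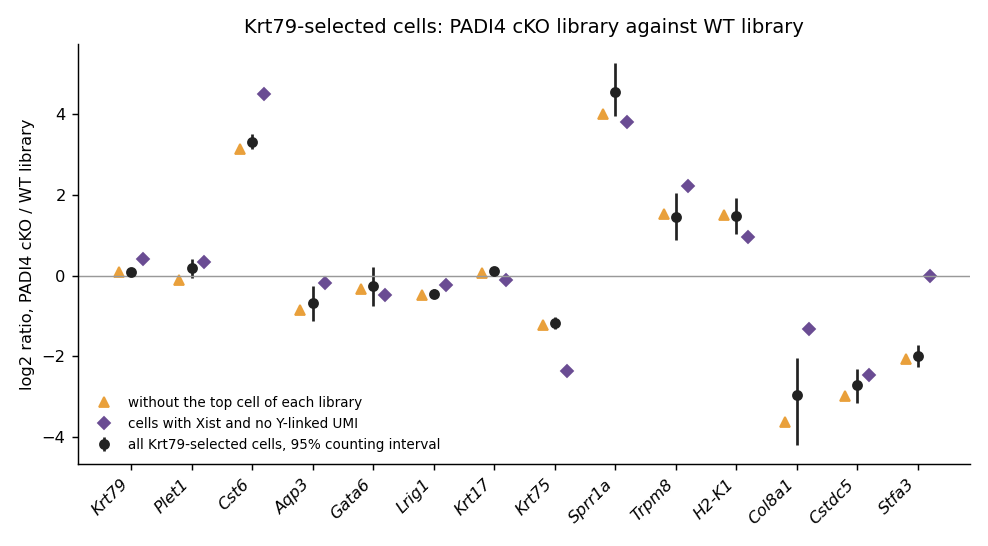
Log2 ratio of cKO over WT in the Krt79-selected cells for 14 genes. Black points with bars are all cells with the exact 95% counting interval, orange triangles leave out the richest cell of each library, and purple diamonds are Xist-only cells (56 and 172). Plet1 and Krt17 lay within 0.5 of 0 in all 3 readings, as did Krt79 with 0.42 in Xist-only cells, Cst6 and Sprr1a were high in all 3, and Stfa3 was at −0.01 in Xist-only cells.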

How the data were processed

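Droplet matrices of 10x Chromium 3′ v3.1 libraries were deposited by the authors as raw UMI counts per gene and barcode, made with Cell Ranger 7.1.0 (from the matrix headers) on mm10 (submitters' notes), with empty droplets included and no normalization. The authors' CellBender and Harmony steps were not repeated. Droplets with 2000 to 60000 UMIs, 1000 to 8000 genes and at most 20% mitochondrial UMIs were kept. UMIs were summed per library over the Krt79-selected cells and all other droplets and scaled to CPM, and log2 ratios were computed after 0.5 UMI had been added, with exact conditional binomial 95% intervals for counting error. No test was run, because there was 1 library per genotype. Counts were thinned to 2000 UMIs per cell without replacement. Scrublet's automatic threshold called 1 droplet in the PADI4 WT library, so 0.194, set on the cKO library, served both, and doublets were kept. Free RNA was bounded from genes of other cell types in droplets with fewer than 100 UMIs. Sub-clusters came from 2000 variable genes, 20 principal components, 15 neighbors and Leiden resolution 0.5 in Scanpy 1.11.5. Named genes were the markers and rule genes, members of fixed lists, the 25 highest and 15 lowest ratios and the 10 highest and lowest ratios between libraries. The members and lists were chosen with earlier results of these data known. The library totals were 143938990 and 143945294 UMIs. The ratio was tested on simulated data.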

Additional observations from a re-analysis of the deposited data

How the results depend on the processing

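The share of Krt79-selected cells (2.98% and 2.22%) moved most with the thresholds of the rule. It was 4.62% and 3.21% with Krt79 of at least 3 per 10000, 1.67% and 1.53% with 10, 1.02% and 0.911% with 20, 2.62% and 1.86% with sebaceous genes below 2 UMIs, 5.84% and 5.39% with no limit on them, and 3.42% in the PADI4 WT library with droplets of at least 1000 UMIs and 500 genes, where 54 of 453 added PADI4 WT droplets and 9 of 138 of the other library met the rule. With a minimum of 500 UMIs per gene, 272 genes were higher and 281 lower, and after thinning to 2000 UMIs 212 and 266, as fewer genes passed. Between the libraries the counts were 683 genes above in cKO and 650 genes below in cKO with a minimum of 50 UMIs, 94 and 70 with 500, and 101 and 96 after thinning, and 268 lay below in Xist-only cells against 472 above. Resolution 0.25 gave 4 sub-clusters. Values near 0 changed sign in 6 cases, and the cause was not tested. These were Lrig1 in the library labelled PADI4 cKO (−0.27 with Krt79 of at least 10), Krt5 there (0.0202 without sub-clusters 5, 6 and 8), and between the libraries Krt79 (−0.10 with Krt79 of at least 10), Krt17 (−0.10 in Xist-only cells) and Plet1 (−0.18 with the study's hemoglobin and ribosomal limits, −0.10 without its richest cell). Of the other ratios of named genes, 926 stayed within their interval and 206 moved for the cells against other droplets, and 227 and 31 between the libraries. Equal weighting, the Xist-only reading against other droplets, the sub-clusters left out and the richest cell left out were added after the data had been seen. No paired analysis was possible because there was 1 library per genotype. Single libraries and 14 cells in the smallest sub-clusters limit what can be resolved.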
